A study of Rattus norvegicus with 7 samples.

Results

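The 10 genes described here build ribosomes in the nucleolus. They are *Rrs1*, *Nop56*, *Nop58*, *Fbl*, *Ncl*, *Npm1*, *Bop1*, *Pes1*, *Wdr12* and *Nip7*, and they were chosen by symbol from 13337 named genes on the array, with earlier results of these data known. Each is represented by 1 probe. A probe counted as detected on an array when its deposited detection p-value lay under 0.02, and 9 of the 10 genes were detected on at least 2 arrays and entered the fit, among 9187 probes and 6592 named genes. The probe of *Pes1* was left out by this filter and is described by its values.

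RNA that co-purified with TRF2-S, the short splice form of a telomere-binding protein, was compared with RNA from a parallel immunoprecipitation with rabbit IgG, to ask which mRNAs associate with TRF2-S in neurons. The cultures came from the cerebral cortex of Sprague-Dawley rats at embryonic day 18 and were kept for 9 days, with no other treatment named in the labels. RNA immunoprecipitation (RIP) with a polyclonal antibody to TRF2-S gave 2 arrays (Illumina rat Ref-12, single colour). RIP with IgG gave 5, named IgG1, IgG2, IgG3, IgG3_0 and IgG3_1x. Whether the 3 arrays with names that begin with IgG3 hold separate RNA is not stated, so p-values measure the spread between arrays, which may be technical in part. None of the 7 arrays holds input RNA, so how much of a transcript was bound and how much of it the cells held cannot be told apart, nor can fewer cells of a type and less RNA per cell.

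The nucleolus is where most ribosomal RNA is transcribed, modified, cut and packed with ribosomal proteins. Nop56, Nop58 and fibrillarin (Fbl) form, with a small RNA-binding protein, the core of the box C/D ribonucleoprotein particles, in which guide RNAs direct fibrillarin to methylate ribosomal RNA. Pes1, Bop1 and Wdr12 make up the PeBoW complex of the maturing large subunit, where Nip7 also acts in yeast. Rrs1, known best from yeast, works with Rpf2 to load the smallest ribosomal RNA and its protein partners onto the large subunit. Nucleolin (Ncl) and nucleophosmin (Npm1) are abundant nucleolar proteins, an RNA-binding protein and a histone and assembly chaperone. Neurons no longer divide but keep nucleoli.

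These genes are often transcribed together in growing cells, and their promoters were read from RefSeq (build GRCr8, 250 bases before to 50 after the annotated start). A promoter was matched for 8 of the 10 genes, Rrs1 and Bop1 being the exceptions. The windows below show the motif matches that lie before the annotated start. The E-box is the site that Myc-family factors bind. The motifs searched, on both strands, were the E-box CACGTG, the letters CCGGAAGT that ETS factors bind, and TCTCGCGA, part of the CGCG element. The ETS and CGCG letters were chosen after the sequences had been seen. Capitals mark the motif, and each window runs along the strand of its gene:
Npm1 (chr10:18255776-18255809, minus strand): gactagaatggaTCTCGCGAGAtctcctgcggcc
Nop58 (chr9:68614897-68614928, plus strand): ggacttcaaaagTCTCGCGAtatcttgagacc
Nop58 (chr9:68614987-68615018, plus strand): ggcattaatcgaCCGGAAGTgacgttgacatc
Fbl (chr1:92597328-92597359, plus strand): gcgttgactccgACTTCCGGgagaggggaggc
Pes1 (chr14:83074284-83074313, plus strand): ccctaagcggggCACGTGcggtaggaagta
The CGCG letters lay 56 bases before the start of *Npm1*, where the motif overlaps its own match on the other strand, and 165 bases before that of *Nop58*. They were in 2 of the 8 promoters and in 0.855% of 33469 RefSeq promoters of this length. The ETS letters were in 3 promoters, those of *Nop58*, *Fbl* and *Nip7*, against 3.81% of all. The E-box was in those of *Pes1* and *Fbl*, against 6.42%. The ETS match of *Nip7* and the E-box of *Fbl* lay after the start and are not shown. A match is a description of the letters and no evidence of a bound factor. The 8 promoters held between 48.0% (*Pes1*) and 76.3% (*Wdr12*) G and C, against a median of 51.7% over all promoters.

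All 7 arrays detected between 7097 and 8326 of 22523 probes, and 9 of 10 neuronal markers were detected on every array. Astrocyte markers were also present, with 5 of 6 detected on every array and *Aqp4* on none. Markers of other cells were present in part. In the oligodendrocyte lineage *Cnp* was detected on 7 arrays, *Pdgfra* on 5, *Mbp* on 2, and *Mog* and *Olig2* on none. *Aif1* of microglia was detected on 6 arrays, with *Itgam* and *Tyrobp* on none, and *Cldn5* of endothelium on 3, with *Flt1* on none. Of the genes of dividing cells, *Cdk1* and *Pcna* were detected on 7 arrays, *Mcm2* on 2 and *Ccnb1* on none. Summed intensities of the 6 astrocyte probes ran from 1645 to 2811 on the TRF2-S arrays, from 2240 to 2707 on IgG1 and IgG2 and from 3982 to 10550 on the arrays named IgG3, whose mean intensities per probe were also higher (298 to 608, against 155 to 216 on the other 4). On the log2 scale used for the members, the 5 detected astrocyte genes were lower in the TRF2-S RIP than in IgG1 and IgG2, with differences of -0.26 for *Gfap*, -0.32 for *Slc1a3*, -0.37 for *S100b*, -0.19 for *Gja1* and -0.23 for *Aldoc*. The neuronal markers went both ways, from 0.48 for *Tubb3* to -0.26 for *Syt1*. *Cnp* lay at -0.37, *Cdk1* at -0.26 and *Pcna* at 0.32. The part of other cell types in the results was not tested. The arrays named IgG3 stood apart: across tested probes their Pearson r was 0.875 to 0.933 with the other 4 arrays, which among themselves reached 0.977 to 0.991. Each result is therefore given against IgG1 and IgG2 alone and against all 5 IgG arrays. These comparisons share the TRF2-S arrays, IgG1 and IgG2, and are not independent.

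Levels are log2 intensities after the Z-score transformation of each array, put back on a common log2 scale. Background was not subtracted, so changes of dim probes come out too small. The SD of the common scale (1.21) is above that of IgG1, IgG2 and the TRF2-S arrays (0.924 to 1.16), so that differences among these 4 arrays are stretched. Probes differ in brightness for a given amount of RNA, and the levels of different genes are not compared with each other. The TRF2-S comparisons were used to choose the genes, so their values below are a description with no test, and SE is that of the fit.

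*Rrs1* was the member that stood highest in the TRF2-S RIP against IgG1 and IgG2. Its probe (ILMN_1367848) measured 184.3 and 245.5 intensity units on the TRF2-S arrays, 117.1 and 118.3 on IgG1 and IgG2, and 399.7, 205.2 and 333.1 on IgG3, IgG3_0 and IgG3_1x. As log2 levels this was 8.18 and 8.23 with TRF2-S, 7.34 and 7.15 on IgG1 and IgG2, and 7.78, 7.50 and 7.72 on the arrays named IgG3. After scaling both TRF2-S arrays lay above all 5 IgG arrays, whereas the unscaled intensities overlapped, the IgG3-named arrays being brighter as a whole. The group means were 8.21 ± 0.035 (SD, n = 2) and 7.24 ± 0.13 (SD, n = 2), a log2 difference of 0.96 ± 0.11 (SE) or 1.95-fold, the 23rd highest of 9187 probes. With all 5 IgG arrays as controls (7.50 ± 0.26, SD, n = 5) the difference was 0.71 ± 0.19 (SE), ranked 439.

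*Rrs1* was also the 1 member past limma's threshold (Benjamini-Hochberg adjusted p under 0.05) in that comparison, where 0.142% of all probes passed upwards and 0.0109% downwards. Nothing is read from the count, since the comparison chose the genes. Its log2 difference was 1.02 after quantile normalization, where *Npm1* passed too (0.67), 0.83 after median centring, 0.85 without normalization and 1.58 after background correction with neqc, and of these 4 it passed after quantile normalization only. Without either TRF2-S array (0.99 and 0.94) no member passed, and without IgG1 both *Rrs1* (1.05) and *Npm1* (0.78) did. In fits that leave out an array, the lone array of a group is assumed to vary like the other group. Its partner in yeast, *Rpf2*, had 0.090 ± 0.12 (SE) against IgG1 and IgG2 and -0.20 ± 0.22 (SE) against all 5 IgG arrays; it was looked up after the values of *Rrs1* were known.

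**Figure D1:**
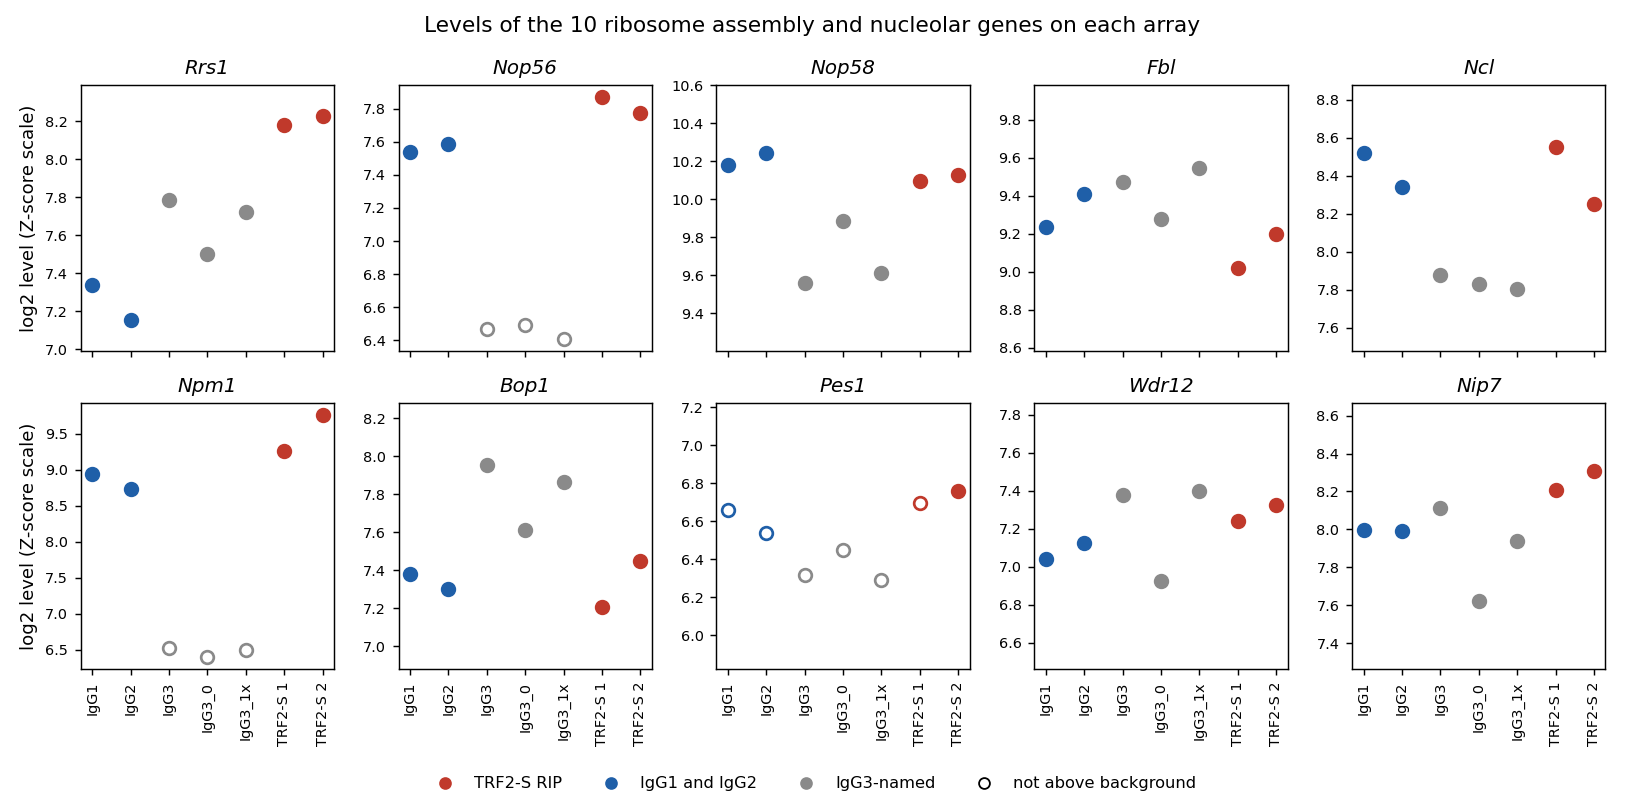
Log2 level (Z-score scale, vertical axis, each gene on its own range) of the 10 genes on each of the 7 arrays, with TRF2-S RIP in red, IgG1 and IgG2 in blue and the arrays named IgG3 in grey; each point is 1 array and open points are not above background. The TRF2-S points of *Rrs1* (8.18 and 8.23) lie above all IgG points, and *Npm1* and *Nop56* are open on the 3 arrays named IgG3.

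*Npm1* and *Nop56* shared a pattern that differed from that of *Rrs1*. The *Npm1* probe (ILMN_1363490) measured 326.3 and 675.0 intensity units with TRF2-S, 292.5 and 319.0 on IgG1 and IgG2, and 126.9, 99.5 and 112.7 on the arrays named IgG3, where it was not above background. Its log2 levels were 9.26 and 9.76, then 8.95 and 8.73, then 6.53, 6.40 and 6.50, in the same order. Both TRF2-S levels lay above all 5 IgG levels, and they lay farther from each other than IgG1 did from IgG2. The log2 difference was 0.67 ± 0.18 (SE; 1.60-fold, rank 91) against IgG1 and IgG2, with 0.92 without TRF2-S array 1 and 0.42 without TRF2-S array 2. It was 2.09 ± 0.81 (SE, rank 23) against all 5 IgG arrays, a value that includes 3 arrays on which *Npm1* had no signal above background.

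The *Nop56* probe (ILMN_1355261) gave log2 levels of 7.87 and 7.78 with TRF2-S and 7.54 and 7.58 on IgG1 and IgG2. On IgG3, IgG3_0 and IgG3_1x it stood at 6.47, 6.49 and 6.41, not above background on any of them. The TRF2-S levels were again above every IgG level, by 0.26 ± 0.11 (SE) against IgG1 and IgG2 and by 0.92 ± 0.38 (SE) against all 5. The unscaled intensities were 156.4 and 181.7 with TRF2-S and 131.4 and 155.1 on IgG1 and IgG2, and TRF2-S array 1 was barely above IgG2.

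The other core proteins of the box C/D particle did not lie above IgG1 and IgG2 as *Nop56* did. *Nop58* (ILMN_1374672) had log2 levels of 10.10 and 10.13 with TRF2-S, 10.18 and 10.24 on IgG1 and IgG2, and 9.56, 9.89 and 9.61 on the arrays named IgG3. *Fbl*, the methyltransferase (ILMN_1371223), had 9.02 and 9.20 with TRF2-S, 9.23 and 9.41 on IgG1 and IgG2, and 9.47, 9.28 and 9.55 on the rest. Both TRF2-S levels of *Fbl* lay below all 5 IgG levels, and those of *Nop58* lay below IgG1 and IgG2 but above the arrays named IgG3. The log2 differences against IgG1 and IgG2 were -0.10 ± 0.10 (SE) for *Nop58* and -0.21 ± 0.12 (SE) for *Fbl*, the first no larger than its SE. With all 5 IgG arrays as controls they were 0.21 ± 0.21 (SE) and -0.28 ± 0.13 (SE).

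Of the PeBoW genes, *Bop1* and *Wdr12* were detected on every array. *Bop1* (ILMN_1364860) stood at 7.21 and 7.45 with TRF2-S, on both sides of IgG1 (7.38) and IgG2 (7.30), and at 7.61 to 7.95 on the arrays named IgG3. *Wdr12* (ILMN_1360454) stood at 7.24 and 7.33 with TRF2-S, above IgG1 (7.04) and IgG2 (7.12) but within the 6.92 to 7.40 of the arrays named IgG3. Their log2 differences were -0.015 ± 0.12 (SE) and 0.20 ± 0.11 (SE) against IgG1 and IgG2, and -0.30 ± 0.20 (SE) and 0.11 ± 0.16 (SE) against all 5. The *Pes1* probe (ILMN_1364114) was near background throughout, at 79.6 to 104.0 intensity units, and was detected on TRF2-S array 2 only (92.7). Its log2 levels were 6.70 and 6.76 with TRF2-S and 6.29 to 6.66 with IgG, and no fold is given because 1 of 7 arrays measured it.

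*Nip7* (ILMN_1363954) had log2 levels of 8.21 and 8.31 with TRF2-S and 7.62 to 8.12 over the 5 IgG arrays, with no overlap on this scale. The unscaled intensities did overlap, with 187 on TRF2-S array 1 and 200.2 on IgG2. Its log2 difference was 0.26 ± 0.11 (SE) against IgG1 and IgG2 and 0.33 ± 0.15 (SE) against all 5. *Ncl* (ILMN_1360147) had 8.55 and 8.25 with TRF2-S, around the 8.52 and 8.34 of IgG1 and IgG2, and 7.80 to 7.88 on the arrays named IgG3. Its difference of -0.028 ± 0.14 (SE) against IgG1 and IgG2 was smaller than its spread, and it was 0.33 ± 0.23 (SE) against all 5.

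Counted together on the Z-score scale, 5 of the 9 genes had both TRF2-S arrays above IgG1 and IgG2 (*Rrs1*, *Npm1*, *Nop56*, *Nip7* and *Wdr12*), where 22.5% of all probes did. On that scale 2 had both below (*Fbl* and *Nop58*), where 19.4% did. The unscaled intensities of *Nip7*, *Wdr12*, *Fbl* and *Nop58* overlapped those of IgG1 and IgG2. With all 5 IgG arrays, 4 (*Rrs1*, *Npm1*, *Nop56* and *Nip7*) lay above on the Z-score scale, against 10.3% of probes, and *Fbl* lay below, against 11.6%. Without scaling *Npm1* and *Nop56* still lay above, and *Rrs1*, *Nip7* and *Fbl* overlapped. No member passed the adjusted threshold against all 5 IgG arrays, where 0.0327% of probes passed upwards and 0 downwards, and 3 members (*Rrs1*, *Npm1* and *Nop56*) had an unadjusted p under 0.05 upwards, against 6.06% of probes. Against IgG1 and IgG2, 4 members (*Nip7* besides these) had one upwards and 0 downwards, against 6.51% and 6.02% of probes. The difference was above 0 for 5 of 9 members against IgG1 and IgG2, where it was for 51.4% of probes, and for 7 of 9 against all 5 IgG arrays, where it was for 41.3%. The median log2 difference of the 9 genes was 0.20 against IgG1 and IgG2, where that of all probes was 0.0048, and 0.33 against all 5 IgG arrays, where that of all probes was -0.070. Array by array, the median of the 9 genes, set against the mean level over IgG1 and IgG2, was 0.16 for TRF2-S array 1, 0.21 for TRF2-S array 2, 0.12 for IgG3, -0.33 for IgG3_0 and -0.055 for IgG3_1x. These counts and medians describe genes that the same comparisons chose.

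**Figure D2:**
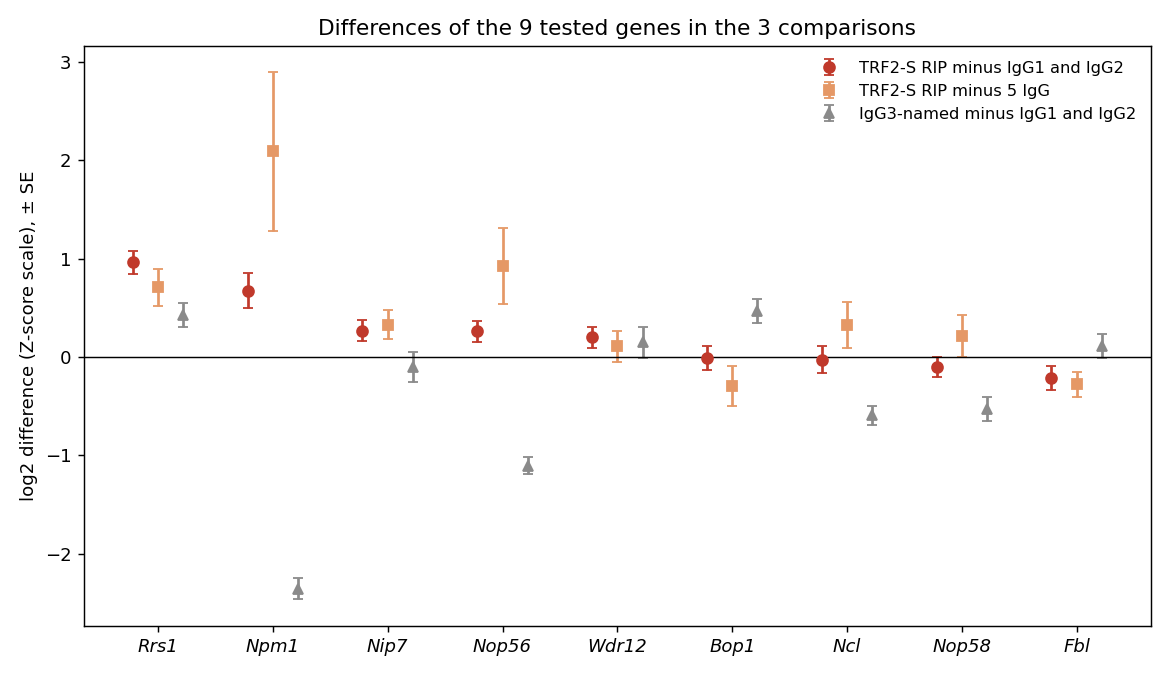
Log2 difference (Z-score scale, vertical axis) of the 9 tested genes in the 3 comparisons, with bars of ± 1 SE from the fit. *Rrs1* lies highest against IgG1 and IgG2 (0.96), *Npm1* highest against all 5 IgG arrays (2.09), and *Npm1* lowest among the IgG arrays. *Npm1* and *Nop56* were not above background on the arrays named IgG3, so that their points in comparisons with these arrays do not measure a fold. On the Z-score scale the bounds were at least 4.72-fold and 1.95-fold lower against IgG1 and IgG2.

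The signs against IgG1 and IgG2 were the same under all 5 scalings of the arrays for 8 of the 9 genes, and *Bop1*, near 0, was the exception. Against all 5 IgG arrays the signs of *Nop58*, *Ncl*, *Wdr12* and *Nip7* turned below 0 after median centring or without normalization, where the median of all probes itself lay at -0.34 and -0.62. *Rrs1*, *Npm1* and *Nop56* stayed above 0 and *Fbl* and *Bop1* below 0 under every scaling. For *Rrs1* the difference without normalization was 0.040.

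**Figure D3:**
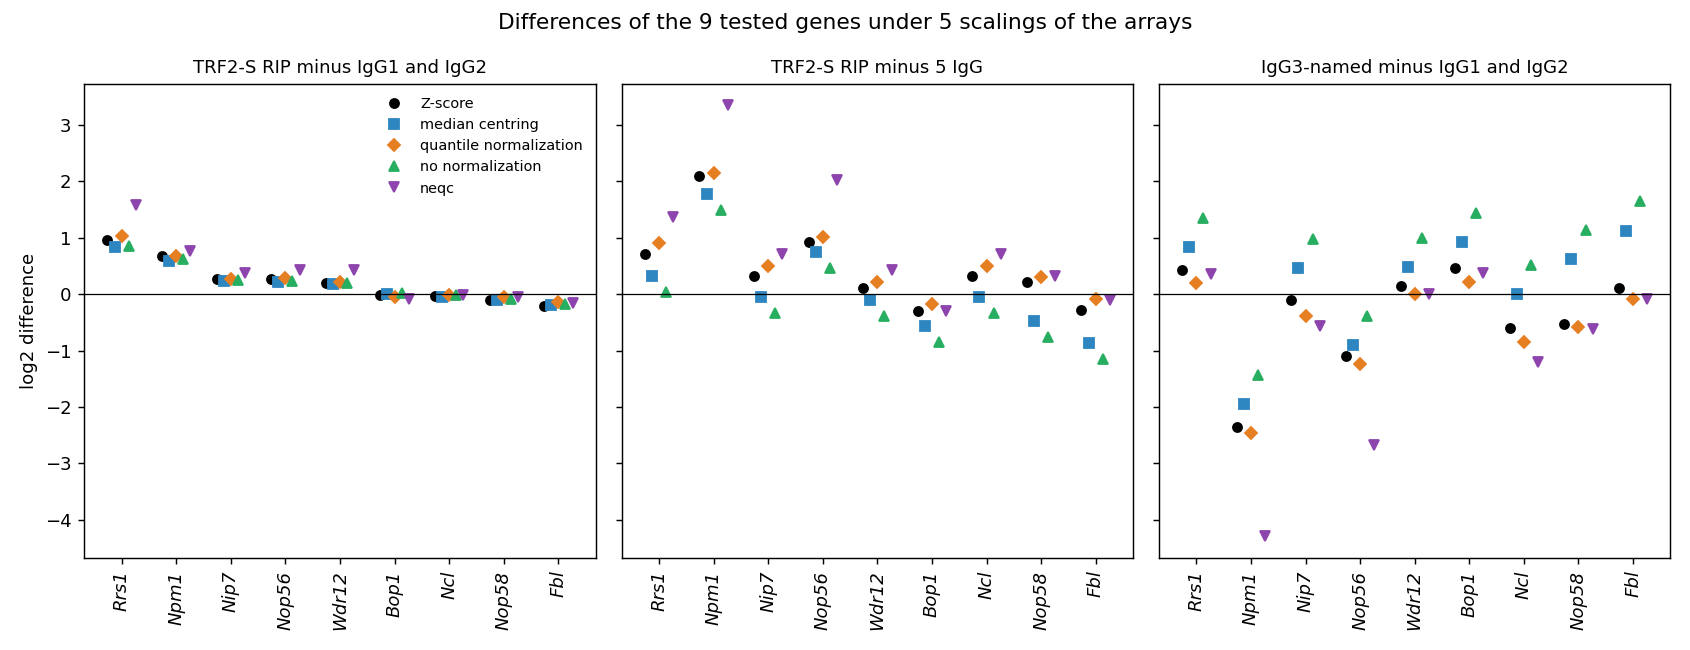
Log2 difference (vertical axis) of the 9 tested genes in the 3 comparisons, under the Z-score scale, median centring, quantile normalization, no normalization and neqc, each symbol 1 scaling. Against IgG1 and IgG2 the symbols stay on 1 side of 0 for all genes but *Bop1*, with *Rrs1* running from 0.83 to 1.58, and they spread across 0 for several genes in the comparisons that use the arrays named IgG3.

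The genes were not chosen on the comparison among IgG arrays as such, but its log2 differences follow from those of the 2 TRF2-S comparisons. It is therefore not independent of the choice, and its calls and adjusted p-values describe the fit. Between the arrays named IgG3 and IgG1 with IgG2, which share the antibody, limma called 6 of the 9 genes, 2 higher and 4 lower. Of all probes 45.4% were called, 27.7% higher and 17.7% lower. *Npm1* had the strongest difference, with a mean of 6.48 ± 0.067 (SD, n = 3) against 8.84 ± 0.15 (SD, n = 2). On the Z-score scale it was at least 4.72-fold lower (log2 -2.24) on the arrays named IgG3. This bound was set from the lowest signal of detected probes on each array. The adjusted p (4.2e-05 by limma) is that of the fitted log2 difference, -2.36, which uses levels at background. That difference was -1.96 after median centring and -1.44 without normalization, so the bound does not hold on those scales. *Nop56* was at least 1.95-fold lower (log2 -0.96) by the same rule, and its fitted log2 difference was -1.10 (adjusted p = 2.8e-04 by limma). That difference was -0.90 after median centring and -0.38 without normalization, again short of the bound. Both passed the filter only through the TRF2-S arrays, IgG1 and IgG2, where they are high, and both are counted among the 4 lower genes. Both leave the test when detection on all 5 IgG arrays is required. *Ncl* was lower by 0.59 ± 0.098 (SE; log2 difference -0.59, adjusted p = 0.0039 by limma), and *Nop58* by 0.53 ± 0.12 (SE; log2 difference -0.53, adjusted p = 0.014 by limma), although the sign of *Nop58* turned after median centring (0.62) and without normalization (1.14) and that of *Ncl* without normalization (0.51). The call of *Nop58* was also lost without IgG1, IgG2 or IgG3_1x, with adjusted p of 0.074, 0.090 and 0.056 by limma.

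On the upper side, limma called *Bop1*, with a log2 difference of 0.47 ± 0.12 (SE, adjusted p = 0.022), and *Rrs1*, with 0.42 ± 0.12 (SE, adjusted p = 0.029). Both calls were lost without IgG1, without IgG2, without IgG3 or without IgG3_1x, with adjusted p between 0.069 and 0.17 by limma. That of *Bop1* was also lost after median centring, and that of *Rrs1* after median centring, quantile normalization and neqc. *Fbl* (0.11, adjusted p = 0.46 by limma), *Wdr12* (0.15, adjusted p = 0.46) and *Nip7* (-0.10, adjusted p = 0.59) did not pass. *Nip7* passed on the lower side after quantile normalization (-0.39, adjusted p = 0.0021 by limma) and with neqc (-0.57, adjusted p = 0.0061), and *Fbl* passed on the upper side without normalization (1.64, adjusted p = 0.043). Without normalization the split of the members was 4 higher (*Rrs1*, *Nop58*, *Fbl* and *Bop1*) and 1 lower (*Npm1*). The call of *Npm1* held under all 5 scalings. That of *Nop56* was lost after median centring (-0.90) and without normalization (-0.38), and that of *Ncl* after median centring (-0.0028). Every scaling uses background levels of *Npm1* and *Nop56* on the arrays named IgG3, so nothing is read from the calls of these genes that held.

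The other genes of the pathway were taken from lists for box C/D and box H/ACA particles, large and small subunit assembly, RNA polymerase I, the exosome and nucleolar scaffold proteins, chosen with results known and with the 10 genes left out. Of 110 on the array, 95 were tested. Against IgG1 and IgG2, 0 of the 95 passed the adjusted threshold by limma, 3 lay above and 5 below 0 with an unadjusted p under 0.05, 37 lay above 0, and the median log2 difference was -0.044. Of all 6583 other named genes tested, 48.9% lay above 0, with a median of -0.0041. With all 5 IgG arrays as controls 0 passed by limma, 2 lay above and 4 below 0 with an unadjusted p under 0.05, 19 of 95 lay above 0 and the median was -0.20, against 38.0% and -0.093 over all named genes.

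By role, 12 of 30 large subunit factors and 18 of 34 small subunit factors lay above 0 against IgG1 and IgG2, with medians of -0.045 and 0.0020. The brightest large subunit probes were *Nsa2* (log2 difference -0.041) and *Ddx24*, an RNA helicase (-0.41), and the brightest small subunit probes were *Utp11* (-0.094) and *Fcf1*, which cuts near the start of the small subunit RNA (0.49); none of the 4 passed. The 4 box C/D assembly genes all lay below 0 (*Znhit6* -0.25 and *Ruvbl1* -0.14 among them), as did both box H/ACA genes (*Gar1* -0.023 and *Nhp2* -0.44). RNA polymerase I had 3 of 12 above 0, with *Polr1d* at -0.22 and *Polr1f* at -0.12. The exosome had 3 of 11, with *Exosc7* at -0.066 and *Exosc4* at -0.045, and the scaffold genes had 3 of 5, with *Nop53* at -0.50 and *Nolc1* at -0.11. The highest difference of these lists was that of *Fcf1*. Nothing is read from its distance to the 0.96 of *Rrs1*, which is the highest of genes that this comparison chose.

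**Figure D4:**
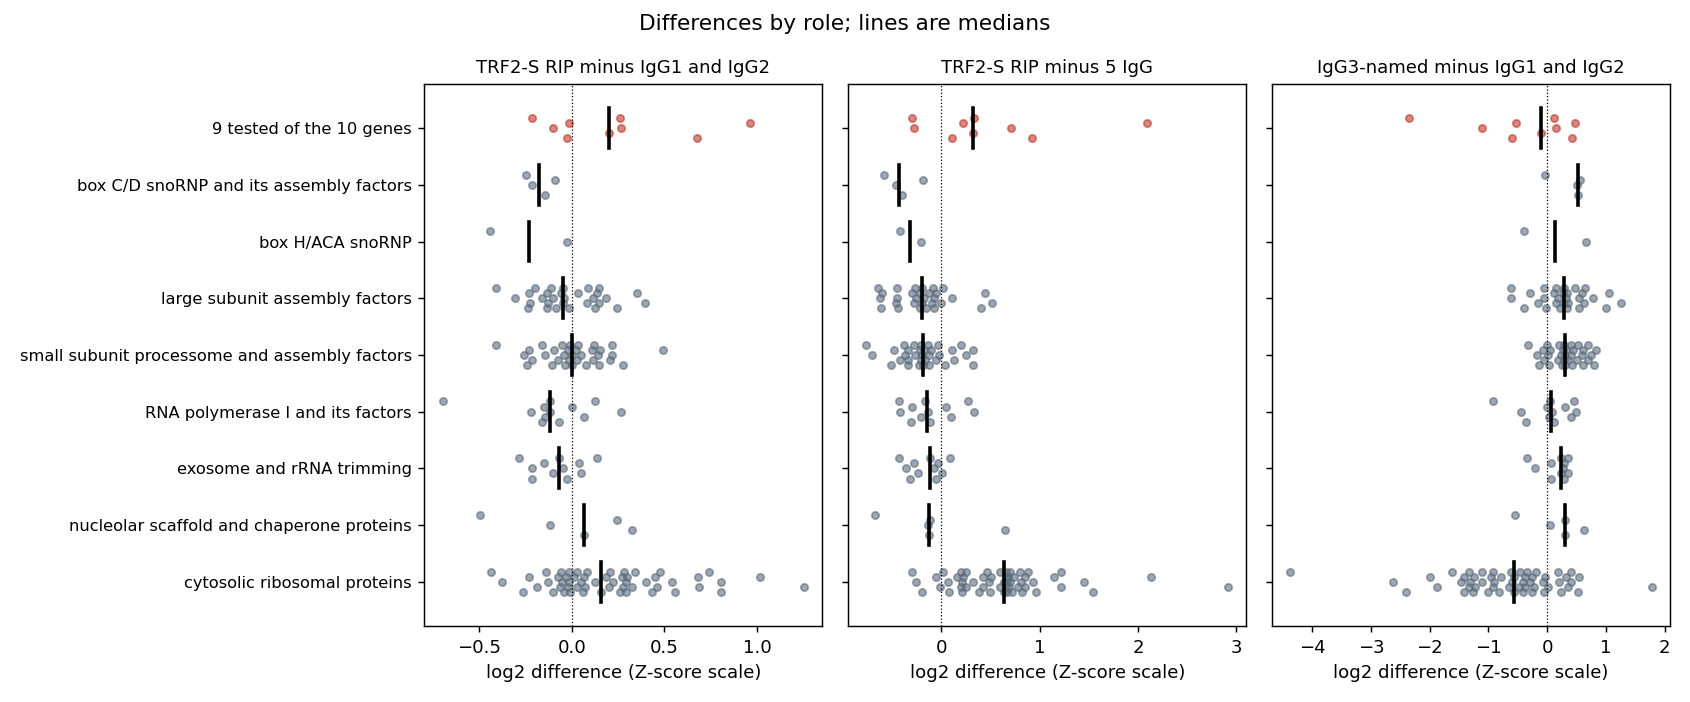
Log2 difference (Z-score scale, horizontal axis, its own range in each panel) of the tested genes by role in the 3 comparisons; each point is 1 gene and the vertical line is the median of its list. Against IgG1 and IgG2 the 9 tested genes have a median of 0.20, and the large and small subunit lists have medians of -0.045 and 0.0020.

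The cytosolic ribosomal proteins, the cargo of this pathway, were described beside it. Of 55 tested, 37 lay above 0 against IgG1 and IgG2, with a median of 0.16 (0.091 to 0.16 over the 5 scalings), beside 48.9% and -0.0041 over all named genes. Their log2 differences ran from -0.44 to 1.25 on the Z-score scale. *Rps12* was the 1 called, beside 7 higher and 1 lower among all 6583 named genes. Nothing is read from this, since the list was chosen with results known. *Rps12* had log2 levels of 10.32 and 10.16 with TRF2-S and 9.21 and 9.24 on IgG1 and IgG2, a difference of 1.01 ± 0.11 (SE). Its call was lost after median centring, without normalization, with neqc and without either TRF2-S array. On the arrays named IgG3 *Rps12* was higher still, at 10.85 to 11.27. With all 5 as controls 50 of 55 lay above 0, beside 38.0% of all named genes, with a median of 0.64, which turned to -0.62 after median centring and -0.90 without normalization and was 0.090 after quantile normalization, so that no direction is given.

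Among the IgG arrays, 31 of the 95 assembly genes were called higher on the arrays named IgG3 and 6 lower, with a median of 0.29, against 1891 and 1100 of all 6583 named genes and a median of 0.12. The split of the 95 changed with the scaling, to 35 higher and 25 lower after quantile normalization, 33 and 21 with neqc, 72 and 0 without normalization and 0 and 0 after median centring. Their median ran from 0.10 to 1.26 over the scalings, and that of all named genes from 0.050 to 1.12. On the Z-score scale the log2 differences of *Npm1*, *Nop56*, *Nop58*, *Ncl* and *Nip7* lay below 0. Those of *Rrs1*, *Bop1*, *Fbl* and *Wdr12* lay above 0, and of all these genes only *Rrs1* and *Bop1* exceeded 0.29. Of the 4 genes called lower, *Npm1* and *Nop56* stayed lower under all 5 scalings, with levels at background on the arrays named IgG3.

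The genes with a profile most like the mean of the 9 tested members over the 7 arrays were *Borcs7* (Pearson r = 0.996), *Sypl1* (0.995), *Slc25a11* (0.995), *Pde2a* (0.994) and *Snap91* (0.993). These values describe 7 arrays of which 3 stand apart, and 642 of 6583 named genes had an r above 0.9. The mean profile is set largely by *Npm1*, the gene with the widest range over the arrays.

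RefSeq names pseudogenes for 7 of the 10 genes: 20 for *Npm1*, 16 for *Nip7*, 14 for *Rrs1*, 7 for *Fbl*, 6 for *Pes1*, 5 for *Ncl* and 2 for *Wdr12*. Probe sequences were not used here, and whether RNA of these copies adds to a probe's signal was not tested.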

How the data were processed

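Illumina rat Ref-12 arrays were used for RNA from 2 TRF2-S and 5 IgG RIP samples. The authors deposited an intensity per probe and array, not normalized between arrays, a detection p-value that sets it against negative control beads, and a score. The scanner software was BeadStudio per the methods and GenomeStudio 2011.1 per the submitters' processing notes. The deposited score is, to within 5e-10, the log intensity expressed in SDs from the mean of its array, so its scale, centring and direction are known and only the base of the log is not. Its median was -0.378 and -0.423 on TRF2-S arrays 1 and 2, -0.394 and -0.407 on IgG1 and IgG2, and -0.474, -0.397 and -0.467 on IgG3, IgG3_0 and IgG3_1x.

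Here the deposited intensities were put on a log2 scale, transformed to Z-scores within each array and returned to log2 with the mean (6.98) and SD (1.21) averaged over the 7 arrays; no pseudocount was needed, the lowest intensity being 49.6. Probes detected on at least 2 of 7 arrays were fitted with limma 3.58.1 in R 4.3.3 (lmFit, eBayes, Benjamini-Hochberg over all 9187 probes, threshold 0.05). Probe symbols came from the platform annotation, which names 13793 of 22523 probes, each with 1 gene. The code of the fits was checked on simulated arrays with independent noise and log2 changes of 2 up or down. These arrays imitate neither the likeness among the arrays named IgG3 nor smaller changes. The genes and all lists were chosen with earlier results of these data known. Named besides the 10 genes are the 2 with the highest mean level in each role list, a gene called by limma in a TRF2-S comparison, and the 5 with the most similar profile; genes called among the IgG arrays are counted, and *Rpf2* was named after the values had been seen. Where no array of a group detected a probe, its fold is given as a bound on the Z-score scale. Median centring, quantile normalization, no normalization, neqc, other filters, leaving out each array and a replicate block were tried as alternatives. The number of arrays limits the precision.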

Additional observations from a re-analysis of the deposited data

How the results depend on the processing

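The number of probes called was the least stable result. Against IgG1 and IgG2 it was 14, and it became 0 after median centring and without normalization, 357 after quantile normalization, 8 with neqc, 36 with no filter on dim probes and 0 to 298 when 1 array was left out, lowest without either TRF2-S array and highest without IgG1 (46 without IgG2). The methods' variance test per probe gave 693 at an unadjusted p and 0 after Benjamini-Hochberg. Against all 5 IgG arrays it was 3, and it became 0 after median centring and without normalization, 5 after quantile normalization and 10 with neqc. It was 0 with probes detected on all arrays and 1 when any 1 IgG array was left out. The variance test gave 852 at an unadjusted p and 2 after Benjamini-Hochberg. The count was 0 with the arrays named IgG3 averaged and 1 when they entered as a random block. Among the IgG arrays it was 4170 (2544 higher and 1626 lower), 30 after median centring (all lower) and 2014 to 6452 when 1 array was left out: 2014 without IgG1, 2237 without IgG2, 6452 without IgG3_0 and 2567 without IgG3_1x. Without normalization the split was 5600 higher and 85 lower, and against IgG1 and IgG2 quantile normalization gave 221 higher and 136 lower in place of 13 and 1. The cause of these changes was not tested.

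The median log2 difference of the tested members against IgG1 and IgG2, 0.20, became 0.37 with neqc, 0.17 with no filter (which adds *Pes1*) and 0.16 to 0.24 when 1 array was left out. Against all 5 IgG arrays, 0.33 became -0.055 after median centring, 0.50 after quantile normalization, -0.34 without normalization, 0.71 with neqc and 0.17 with the arrays named IgG3 averaged. Among the IgG arrays, -0.10 became 0.47 after median centring, -0.39 after quantile normalization, 0.99 without normalization and -0.57 with neqc, and 0.11 with genes detected on all 5 arrays, where *Npm1* and *Nop56* drop out. The sign of single genes turned among the IgG arrays for *Nop58* (0.62 after median centring, 1.14 without normalization), *Nip7* (0.47, 0.98, and -0.21 to 0.032 when 1 array was left out, the highest without IgG3_0), *Ncl* (0.51 without normalization) and *Fbl* (-0.078 after quantile normalization, -0.088 with neqc). Over all alternatives for single genes among the IgG arrays, 67 values kept their sign and side of the threshold, 18 lost a call, 4 gained one and 8 turned sign. Leaving out IgG1, IgG2 or IgG3_1x lost the call of *Nop58*, and leaving out IgG3_0 added *Wdr12* (0.30, adjusted p = 0.0082 by limma).

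With the replicate block, which pairs IgG1 with TRF2-S array 1 and IgG2 with TRF2-S array 2 and leaves no information from the arrays named IgG3, 648 probes were called in both TRF2-S comparisons, *Rrs1* and *Npm1* among them against IgG1 and IgG2. The numbers are shared in the labels only, and the deviations of the first pair correlated at 0.28. The mean over several probes of a gene was not run, as each member has 1 probe. Depth here is signal over background, which limits *Pes1* everywhere and *Npm1* and *Nop56* on the arrays named IgG3.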
